A study of Mus musculus and Rattus norvegicus with 28 samples.

Results

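The 6 genes described here make or spend phosphocreatine, or bring creatine into the cell: the creatine kinases Ckm, Ckmt2 and Ckb, the creatine transporter Slc6a8, and the enzymes of creatine synthesis Gatm and Gamt. They were picked by gene name from 55450 mouse and 32623 rat genes in the expression files, and all 6 passed the filter on low values in both species, where 13979 mouse and 13625 rat genes did. The study asked how gene regulation changes in heart muscle cells around birth. Mouse cardiomyocytes from the left ventricles of C57BL/6 animals were taken on embryonic day 18.5 (E18.5) and on postnatal days 1, 3 and 7 (P1, P3 and P7), with 2 RNA-seq and 2 ATAC-seq libraries at each age. The cells were released by enzyme digestion, plated briefly so that other cells would attach and be left behind, and used without culture. Rat cardiomyocytes (NRVCs) came from left ventricles of Sprague Dawley pups on P1 and were cultured. A day after plating they received either 100 nM trichostatin A (TSA), which blocks histone deacetylases, or the solvent DMSO, with 3 RNA-seq libraries each. The labels do not say whether libraries of a group came from separate litters or cultures, so the p values measure only the spread between these libraries.

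Creatine kinases move a phosphate group between ATP and creatine. In a beating muscle cell, Ckmt2 sits in the intermembrane space of mitochondria and makes phosphocreatine from newly made ATP, while Ckm, partly bound at the M-band of the sarcomere, turns it back into ATP beside the myosin motors. Ckb is the cytosolic form of brain and of many other tissues and is the early form in the developing heart. Heart muscle takes up most of its creatine from the blood through Slc6a8, and creatine itself is made in 2 steps, by Gatm from arginine and glycine and by Gamt with a methyl group from S-adenosylmethionine, mainly in kidney and liver.

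The promoter sequences of the kinases and of Gamt are shown because peaks described further on lie over or beside them. For Ckm and Ckmt2, 1 ATAC-seq region each that recurred in the peak lists is shown as well. They are reference sequence from RefSeq (GRCm38.p6, the same chromosomes as mm10), each 5′ to 3′ on the strand of its gene, and end just before the first exon of RefSeq or GENCODE where they are promoters. Capitals mark matches on either strand to 7 motifs: CANNTG (the E-box), the MEF2 consensus, TATAAA (the TATA box), CCAAT (bound by NF-Y), GGGCGG (bound by Sp1 and its relatives), TGANTCA (bound by AP-1) and AAGGTCA (bound by nuclear receptors).
Ckm promoter, chr7:19410844-19411024, plus strand: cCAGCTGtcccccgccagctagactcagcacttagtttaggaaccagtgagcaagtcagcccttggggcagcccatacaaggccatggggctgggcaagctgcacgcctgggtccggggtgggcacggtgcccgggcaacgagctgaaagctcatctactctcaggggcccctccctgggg
Ckm upstream region, chr7:19405556-19405684, plus strand: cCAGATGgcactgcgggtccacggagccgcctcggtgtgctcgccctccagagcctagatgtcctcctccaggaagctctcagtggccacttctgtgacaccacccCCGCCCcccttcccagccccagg
Ckmt2 promoter, chr13:91876924-91877173, minus strand: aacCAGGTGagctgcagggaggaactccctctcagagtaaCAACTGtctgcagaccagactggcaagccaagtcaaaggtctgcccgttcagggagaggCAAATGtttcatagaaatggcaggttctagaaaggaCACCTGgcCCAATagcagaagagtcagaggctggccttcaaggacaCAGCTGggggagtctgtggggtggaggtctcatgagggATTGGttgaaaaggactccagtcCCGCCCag
Ckmt2 intronic region, chr13:91874078-91874257, minus strand: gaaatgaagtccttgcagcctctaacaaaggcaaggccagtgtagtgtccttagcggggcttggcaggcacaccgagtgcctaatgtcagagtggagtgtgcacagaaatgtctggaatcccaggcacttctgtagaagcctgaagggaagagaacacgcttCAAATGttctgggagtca
Ckb promoter, chr12:111672339-111672588, minus strand: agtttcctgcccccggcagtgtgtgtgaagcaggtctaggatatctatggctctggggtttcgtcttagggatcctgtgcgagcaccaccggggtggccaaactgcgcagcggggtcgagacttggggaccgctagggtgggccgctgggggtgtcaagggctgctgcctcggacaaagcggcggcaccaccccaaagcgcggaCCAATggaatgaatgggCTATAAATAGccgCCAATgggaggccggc
Gamt promoter, chr10:80261013-80261262, minus strand: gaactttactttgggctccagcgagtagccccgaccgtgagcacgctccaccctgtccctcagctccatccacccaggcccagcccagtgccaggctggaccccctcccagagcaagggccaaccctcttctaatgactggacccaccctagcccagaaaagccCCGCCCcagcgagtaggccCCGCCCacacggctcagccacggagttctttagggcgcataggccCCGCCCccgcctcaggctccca
The Ckb promoter held a MEF2 consensus match whose first base lay 29 bases before the start, with TATAAA inside it, and a CCAAT on each side of it, 46 and 16 bases before the start. Of 32851 RefSeq promoters cut to the same 250 bases, 2.92% held a MEF2 match, 12.4% TATAAA and 33.8% CCAAT. The Ckmt2 promoter held 5 E-boxes, 2 CCAAT and 1 GGGCGG, and 66.2% of promoters held at least 1 E-box. In the Gamt promoter GGGCGG occurred 3 times, against 32.7% of promoters with at least 1. The Ckm promoter, shown over the 181 bases before its main GENCODE start, held 1 E-box. Of RefSeq promoters cut to the 181 bases before the RefSeq start, 54.3% held at least 1. The region upstream of Ckm held 1 E-box and 1 GGGCGG, found in 46.2% and 13.7% of the peaks of the second P3 list cut to 129 bases, and the Ckmt2 intronic region held 1 E-box, found in 46.3% of the peaks of the second E18.5 list cut to 180 bases. A match describes the letters only, and no match means only that these letters are missing from the window. Of the 6 genes, Slc6a8 had no entry in the promoter table.

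Expression is given as FPKM, fragments scaled by the length of the transcript and by the aligned reads of the library, which allows levels of different genes to be compared. The mouse libraries held 29.3 to 37.5 M aligned reads and the rat libraries 28.2 to 38.5 M. From staining for the protein cardiac troponin T, the paper reports high purity of the isolated cells, also at P7. It further describes the Pecam1 and Dcn promoters as not accessible in them. Here the labelled cell type was checked against the RNA of 16 cardiomyocyte markers. Their summed level was 29537 to 38117 FPKM in the E18.5 libraries, then 14431 to 23318, 8439 to 9697 and 1026 to 2417 FPKM in those of P1, P3 and P7, and all 16 were called lower at P7 than at E18.5. Over the same ages the sum of 12 fibroblast markers was 504 to 520, 1422 to 1601, 1904 to 2001 and 3447 to 4274 FPKM, and all 12 were called higher at P7. The sum of 7 erythroid markers was 29046 to 35395 FPKM in the E18.5 libraries and 4.70 to 41.0 in all later ones, and all 7 were called lower at P7. Of 14 fast skeletal muscle markers, which would reveal another muscle rich in Ckm, 3 passed the filter, and their list summed to 10.2 to 16.8 FPKM before birth and 2.61 to 2.99 at P7. In bulk samples like these, fewer cells of a type and less RNA per cell cannot be told apart. For this reason the 6 genes are also given relative to the cardiomyocyte markers.

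Ckm, the muscle creatine kinase (chromosome 7, 19404776–19422841, plus strand, mm10), had the largest range of the 6 genes. It was listed at 1215 and 1566 FPKM in the E18.5 libraries, 96.5 and 162 on P1, 39.5 and 24.8 on P3, and 6.89 and 1.50 on P7. Each age lay wholly below the age before it. At E18.5 Ckm ranked 39th and 31st among the 13979 tested genes of its library, and at P7 it ranked 7601st and 11714th. The means were 1391 ± 248 FPKM at E18.5 (SD, n = 2), 129 ± 46.6 at P1, 32.2 ± 10.4 at P3 and 4.19 ± 3.81 at P7, so that E18.5 exceeded P1 10.7-fold, P3 43.2-fold and P7 332-fold. On the log2(FPKM + 1) scale used for testing, Ckm fell by 3.45 at P1 (SE 0.50, adjusted p = 0.00135), by 5.42 at P3 (SE 0.50, adjusted p = 0.000129) and by 8.28 at P7 (SE 0.50, adjusted p = 1.48e-05). Between later ages it fell by 4.83 from P1 to P7 (adjusted p = 0.00104) and its log2 change from P3 to P7 was −2.87 (adjusted p = 0.0189). The difference of −1.96 between P3 and P1 did not pass (adjusted p = 0.24). The fall from P3 to P7 was no longer called when either P3 library or the second P7 library was left out, or without the filter on low values (adjusted p from 0.059 to 0.132). The lowest level rested on about 116 reads, in the second P7 library, and the highest on about 142480.

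**Figure D1:**
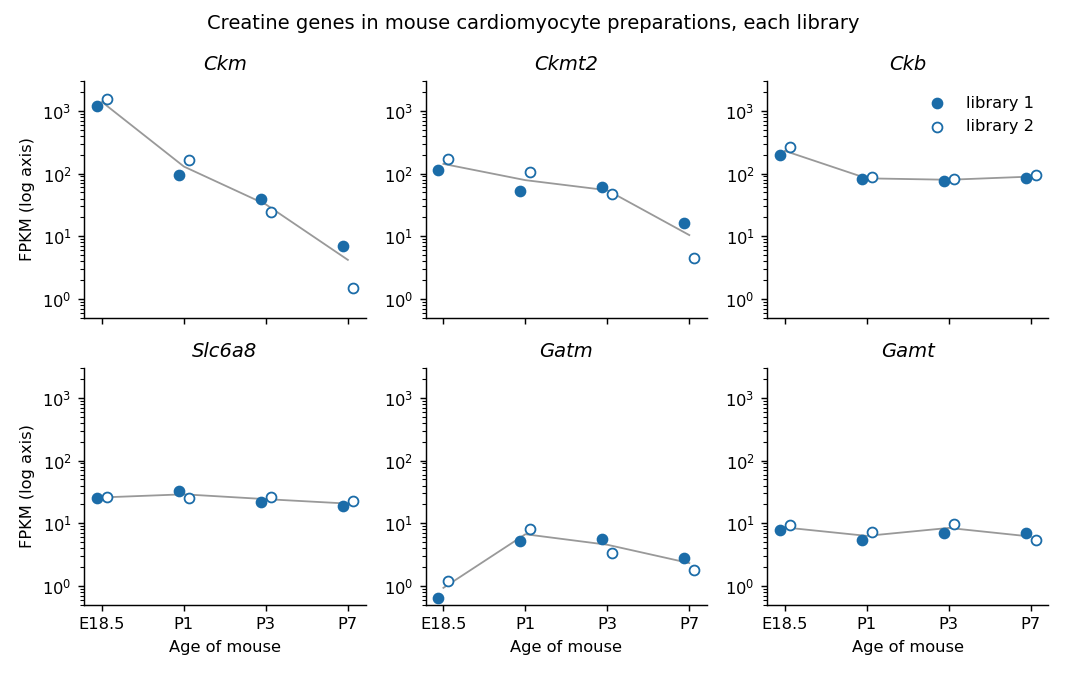
FPKM of each gene (log axis) in the 2 mouse RNA-seq libraries of each age; filled and open points are libraries 1 and 2, and the line joins the means. Ckm runs from 1215 and 1566 FPKM at E18.5 to 6.89 and 1.50 at P7, while Slc6a8 stays between 18.9 and 33.0.

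Nearly all of the Ckm signal was assigned to a single transcript, ENSMUST00000208710, which took 94.1 to 97.1% of Ckm FPKM in 7 libraries and 61.2% in the second P7 library, the shallowest for this gene. The transcript that begins furthest upstream took at most 1.12%. The antisense gene A930016O22Rik overlaps Ckm, and the library kit does not keep strand, so reads of both cannot be told apart; it was listed at 0.306 FPKM or less in every library.

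Ckmt2, the mitochondrial kinase of striated muscle (chromosome 13, 91853387–91876885, minus strand), was listed at 114 and 172 FPKM at E18.5, 53.0 and 104 on P1, 60.4 and 48.1 on P3, and 16.4 and 4.45 on P7. The P1 and P3 libraries overlapped, E18.5 lay above all others and P7 below all others. Its mean level was 13.7-fold higher at E18.5 (143 ± 40.8 FPKM, SD, n = 2) than at P7 (10.4 ± 8.46). The test called it lower at P7 than at E18.5 by 3.85 on the log2 scale (SE 0.52, adjusted p = 0.000459), than at P1 by 2.95 (adjusted p = 0.00649) and than at P3 by 2.49 (adjusted p = 0.0354). Its log2 differences from E18.5 at P1 and P3, −0.90 (adjusted p = 0.198) and −1.36 (adjusted p = 0.0607), did not pass. The difference at P3 was called when either P7 library was left out (adjusted p = 0.0117 both times) and when only the libraries of E18.5 and P3 were fitted (adjusted p = 0.00259). The call against P3 was lost when any one of the E18.5 or P3 libraries or the second P7 library was left out, and in 3 other settings (adjusted p from 0.0531 to 0.186). Without the filter on low values the call against P1 was also lost (adjusted p = 0.0519). The antisense gene 1700119I11Rik lies within Ckmt2 and was listed at 0.422 FPKM or less.

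Ckb (chromosome 12, 111669361–111672338, minus strand) was listed at 196 and 265 FPKM at E18.5, 81.1 and 86.8 on P1, 77.1 and 82.2 on P3, and 83.8 and 95.3 on P7. E18.5 stood apart above all later libraries, P1 overlapped P3 and P7, and P3 lay below P7. Ckb fell between E18.5 and P1 by 1.43 on the log2 scale (SE 0.16, adjusted p = 0.000431). Against E18.5 it was lower by 1.50 at P3 (adjusted p = 0.000231) and by 1.34 at P7 (adjusted p = 0.000233). Between P1 and P7 its log2 difference was 0.09, with a 95% interval from −0.28 to 0.46 (adjusted p = 0.761). Its mean at P7 was 89.5 ± 8.12 FPKM (SD, n = 2).

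Of the summed FPKM of Ckm, Ckb, Ckmt2 and Ckmt1 (the mitochondrial form of other tissues, added to complete the sum), Ckm took 79.7% and 78.1% at E18.5, 41.8% and 45.9% on P1, 22.3% and 16.0% on P3, and 6.42% and 1.48% on P7. Ckb took 12.8% and 13.2% at E18.5 and 78.0% and 94.1% at P7. The share of Ckmt2 was highest at P3, with 34.1% and 30.9%, and lower at E18.5 (7.46% and 8.56%) and P7 (15.3% and 4.39%), while Ckmt1 never took more than 0.274%. The sum itself was 1526 and 2004 FPKM at E18.5 and 107 and 101 at P7. These shares are descriptions and were not tested.

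**Figure D2:**
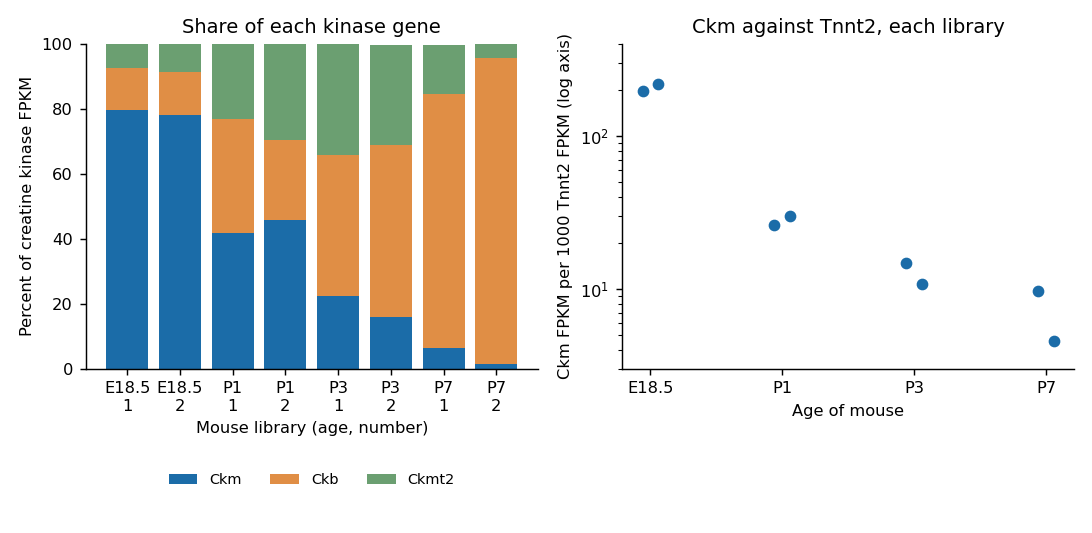
Left, percent of the summed creatine kinase FPKM taken by Ckm, Ckb and Ckmt2 in each mouse library, stacked from 0; right, Ckm FPKM per 1000 Tnnt2 FPKM (log axis) in each library. Ckm goes from 79.7% and 78.1% of the sum at E18.5 to 6.42% and 1.48% at P7, and its ratio to Tnnt2 from 198 and 218 to 9.70 and 4.54.

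Ckm was also lower relative to the cardiomyocyte markers. Against Tnnt2, cardiac troponin T, Ckm stood at 198 and 218 FPKM per 1000 FPKM of Tnnt2 at E18.5, 26.4 and 29.9 on P1, 14.8 and 10.8 on P3, and 9.70 and 4.54 on P7, with no overlap between ages. When every library was centred on the mean log2 level of the 16 cardiomyocyte markers, Ckm was called lower than at E18.5 by 3.61 at P3 (SE 0.26, adjusted p = 0.0345), and at P7 the log2 difference was −4.11 (95% interval −4.85 to −3.38, adjusted p = 0.00232). At P1 the difference of −2.63 (95% interval −3.36 to −1.90) did not pass after adjustment (adjusted p = 0.157). From P1 to P7 Ckm was called lower (−1.48, adjusted p = 0.00647), and from P3 to P7 its difference of −0.50 did not pass (adjusted p = 0.131). The error of the centring is shared by all genes, so these tests use the spread of each gene alone, with the 4 residual degrees of freedom of the limma fit, and the calls of different genes are not independent. On that scale 13 of 13979 genes (0.0930%) were called lower at P7 than at E18.5 and 98.4% were called higher, with a median change of all genes of 4.31. Of the 16 cardiomyocyte markers themselves, 3 were called lower and 1 higher at P7, so they did not all fall alike. The change of a ratio to 1 marker, as to Tnnt2 above, therefore depends on the marker taken. Of the 7 erythroid markers, 4 were called lower and 2 higher. At P3 66.2% of genes were called higher than at E18.5 and 0.279% lower. At P1 none was called by this test, while 3317 had an unadjusted p under 0.05. From P1 to P7 98.2% were called higher and 0.00715% lower, the 1 gene lower being Ckm, from P3 to P7 95.3% were higher and none lower, and from P1 to P3 none was called, with 1011 at an unadjusted p under 0.05. A rise on this scale means that a gene kept more of its level than the markers did. This scale was added after the values had been seen.

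On the same centred scale Ckmt2 was not called in any comparison. Its log2 difference from E18.5 was −0.08 at P1 (95% interval −0.74 to 0.58), 0.45 at P3 (−0.21 to 1.10) and 0.31 at P7 (−0.34 to 0.97). Ckb, lower after birth as measured, was 0.30 above E18.5 at P3 (adjusted p = 0.605) and was called higher by 2.83 at P7 (adjusted p = 0.00603), so its direction depends on the scale. Slc6a8, Gatm and Gamt were called higher at P7 than at E18.5, by 3.85, 4.95 and 3.74, against the all-gene median of 4.31. The part that cell make-up plays in these changes was not tested.

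**Figure D3:**
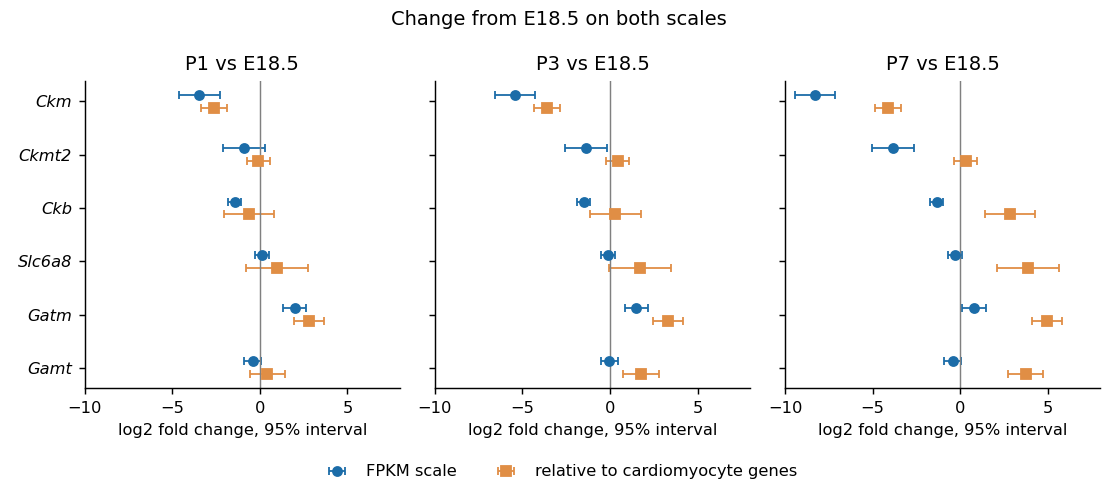
log2 fold change from E18.5 of each gene at P1, P3 and P7, with 95% intervals; circles are changes as measured, squares are changes relative to the 16 cardiomyocyte markers, with intervals from the spread of each gene alone. Ckm lies left of 0 on both scales at every age, Ckmt2 lies at −0.08 to 0.45 relative to the markers, and Ckb changes side at P3 and P7.

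Slc6a8, which carries creatine across the cell membrane (chromosome X, 73673150–73682502, plus strand), was listed at 25.1 and 26.6 FPKM at E18.5, 33.0 and 25.0 on P1, 21.9 and 26.7 on P3, and 18.9 and 22.3 on P7. P7 lay below E18.5 and P1, and P3 overlapped every other age. Its log2 difference from E18.5 was 0.15 at P1 (95% interval −0.25 to 0.55), −0.09 at P3 (−0.49 to 0.31) and −0.32 at P7 (−0.72 to 0.08), and none of these passed. The log2 difference of P7 from P1 was −0.46 (adjusted p = 0.111). Across the 4 ages its F test gave an adjusted p of 0.188. The 13 annotated Slc6a8 transcripts shared the signal differently between libraries of the same age, from 27.3% and 6.60% for ENSMUST00000114465 at E18.5 to 78.9% and 1.53% at P1, so only the sum over transcripts is used.

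Gatm, the first enzyme of creatine synthesis (chromosome 2, 122594467–122611303, minus strand), went the other way. It was near the filter at E18.5, with 0.652 and 1.21 FPKM, and reached 5.15 and 8.22 on P1, 5.69 and 3.40 on P3, and 2.81 and 1.83 on P7. E18.5 lay below every later library, P1 and P3 overlapped, and both lay above P7. Gatm rose by 1.98 on the log2 scale at P1 (SE 0.30, adjusted p = 0.00152) and was 1.50 above E18.5 at P3 (adjusted p = 0.00389). By P7 it was 0.78 above E18.5 (adjusted p = 0.0531), which did not pass, and it fell by 1.20 from P1 to P7 (adjusted p = 0.0263). Without the second P1 library, the second P7 library or the filter the fall was no longer called (adjusted p = 0.155, 0.169 and 0.114). Centred on the cardiomyocyte markers, its difference between P7 and P1 was 2.15, the other way, so that the direction depends on the scale. The median of all genes on that scale was 3.34, and 98.2% of them were called higher. Its levels rested on about 46 to 713 reads, and the added 1 understates its changes. As a ratio of means P1 exceeded E18.5 7.18-fold.

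Gamt, which adds the methyl group (chromosome 10, 80258151–80261012, minus strand), was listed at 7.94 and 9.22 FPKM at E18.5, 5.35 and 7.23 on P1, 7.11 and 9.74 on P3, and 6.96 and 5.31 on P7. The E18.5 libraries lay above those of P1 and P7, and P3 overlapped E18.5 and P1. Its log2 differences from E18.5 were −0.40 (95% interval −0.90 to 0.09), −0.03 (−0.53 to 0.46) and −0.43 (−0.92 to 0.06) at P1, P3 and P7, with no call. The F test over the ages gave an adjusted p of 0.208 for Gamt, against 7.13e-05 for Ckm, 0.00039 for Ckb, 0.00213 for Ckmt2 and 0.00319 for Gatm. Thus 4 of the 6 genes differed among ages, where 51.9% of all tested genes did.

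Counted over the 6 genes, P1 had 1 called higher than E18.5 (10.1% of all tested genes) and 2 lower (6.06%), P3 had 1 higher (13.0%) and 2 lower (8.88%), and P7 had none higher (15.4%) and 3 lower (12.3%). With median-of-ratios scaling, the all-gene calls split as 1012 higher and 1201 lower for P1 against E18.5, 1367 and 1626 for P3, and 1727 and 2072 for P7, while the values were 1411 and 847, 1814 and 1241, and 2155 and 1715 as measured. With TPM they split as 2636 and 911, 3139 and 1228, and 3477 and 1816, over 15908 tested genes. Against P1, 3 were lower at P7 (5.46%) and none higher (3.45%), and against P3, 2 were lower (2.20%) and none higher (1.35%). Between P3 and P1 none was called, and 0.0143% of all genes were called higher and none lower. The comparisons with a common age share its libraries. In order of level, Ckm, Ckb and Ckmt2 led at E18.5 without overlap between neighbours. At P7 Ckb led, followed by Slc6a8 at 18.9 and 22.3 FPKM, and the ranges of Ckmt2, Gamt, Ckm and Gatm overlapped in turn.

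Genes around the creatine shuttle were read from lists. Of 6 genes that pass ADP, ATP and phosphate through the mitochondrial membranes, 3 fell from E18.5 to P7 and none rose, with a median log2 fold change of −0.92 against 0.14 for all genes. Of all tested genes, 12.3% were called lower and 15.4% higher between these ages. Slc25a4, the ATP carrier of heart and muscle, fell by 2.54 (SE 0.16, adjusted p = 1.66e-05), Slc25a3, the phosphate carrier, by 1.59 (adjusted p = 7.96e-05), and Vdac1, the pore of the outer membrane, by 1.19 (adjusted p = 0.000177). The myomesins of the M-band, Myom1 and Myom2, also fell, with log2 changes of −3.95 (adjusted p = 5.7e-05) and −3.06 (adjusted p = 0.000551). Of 7 subunits of AMPK, a kinase that senses the AMP that adenylate kinase makes, 4 fell and none rose (median −1.01). The largest log2 changes were −2.80 for the catalytic Prkaa2 (adjusted p = 3.09e-05) and −2.39 for the muscle form Prkag3 (adjusted p = 2.7e-05). Prkag3 was listed at 4.54 and 4.22 FPKM at E18.5 and at 0 and 0.0518 on P7, so the added 1 understates its change. These falls depend on the scale. Centred on the cardiomyocyte markers, all 6 exchange genes and all 7 AMPK subunits were called higher, as were 98.4% of all tested genes. The list medians were 3.25 and 3.16, below the 4.31 of all genes. On that scale Myom1 differed by 0.22 without a call and Myom2 was called higher by 1.11.

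Of 13 genes for arginine, glycine and methyl groups, 3 rose from E18.5 to P7 and 10 did not pass, with a median of 0.12, where 15.4% of all genes were called higher and their median was 0.14. Ass1, which makes the precursor of arginine, was listed at 2.18 and 3.51 FPKM at E18.5 and 72.6 and 63.4 at P7, a log2 rise of 4.18 (SE 0.34, adjusted p = 4.09e-05). Slc7a2, an arginine transporter, rose by 1.98 (adjusted p = 0.000668) and Arg2, the mitochondrial arginase, by 1.23 (adjusted p = 0.000351). Of 9 tested adenylate kinases and related enzymes, 3 rose and none fell (median 0.21, against the same 0.14): Ak5 by 2.70 (adjusted p = 1.61e-05), the AMP deaminase Ampd3 by 2.45 (adjusted p = 6.63e-05) and Nme1 by 1.22 (adjusted p = 0.000168). The fibroblast markers rose over the same ages, as given above. The sum of 10 smooth muscle and pericyte markers was 431 to 560 FPKM at E18.5 and 1671 to 1879 at P7. Of these, 5 were called higher and 3 lower, where 12.3% of all genes were called lower. Of 12 endothelial markers 2 were higher and 2 lower, of 9 tested macrophage markers 1 and 1. Of 2 tested glia and neuron markers 1 was higher. The part of these cell types in the rises was not tested. Centred on the cardiomyocyte markers, all 13 and all 9 genes of these lists were called higher, as were 98.4% of all tested genes. The list medians were 4.29 and 4.38, against 4.31 for all genes.

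Over the 8 mouse libraries, the patterns of log2 level most like that of Ckm were those of Tnni1 (Pearson r = 0.999), the slow skeletal troponin I of the fetal heart, Cox6b1 (r = 0.998) and Atp5a1 (r = 0.997). Tnni1 was listed at 1456 and 1832 FPKM at E18.5 and 28.5 and 12.7 at P7. Nearest to Ckmt2 were Hspb6 (0.994), Fitm1 (0.993) and Ldb3 (0.990), to Ckb Hspa1a (0.995), Gm43566 (0.995) and Gm36028 (0.994), and to Gatm Krt7 (0.990), Pdgfc (0.982) and Asic1 (0.981). The closest genes were less alike for Slc6a8 (Znrf3, 0.907, Dcp1a, 0.905, and Mpv17, 0.893) and for Gamt (Phf1, 0.932, Tmem170b, 0.919, and Zfp69, 0.919). The points are 8 libraries in 4 ages, each gene was chosen as the best of 13978, and genes share the library and its cell make-up.

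ATAC-seq marks open chromatin, and the deposited lists record where signal passed the peak caller, not how much signal there was elsewhere. A peak within 2.5 kb of an annotated start, in both libraries of an age, was listed for Ckm and Gamt at E18.5 and at P1, for Ckm, Ckb, Gatm and Gamt at P3, and for Ckm, Ckb, Slc6a8 and Gamt at P7. That is 2 of 6 genes at E18.5, where 56.7% of tested genes had such a peak, and 2 on P1 (41.3%), 4 on P3 (87.5%) and 4 on P7 (83.2%). Peak lists were of unequal length, 13149 and 14910 peaks at E18.5 and 95257 and 52040 at P3. With each list cut to its 13149 strongest peaks, the counts were 2 at E18.5 (54.1% of tested genes), 2 on P1 (31.5%), 1 on P3 (37.3%) and 1 on P7 (45.2%).

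Ckm held a peak in the window in all 8 libraries, but not at one place. With each list cut to its 13149 strongest peaks, Ckm kept one in both E18.5 and both P1 libraries and in none of P3 or P7. The 2 transcripts that carry the RNA start at 19411025 and 19411063. A peak over either start was listed in the first E18.5, both P1 and the second P7 libraries, and its fold enrichment ranged from 4.02 to 7.13. In the second E18.5 library the nearest edge of the peak lay at −980 bases from the first of them instead. In neither P3 library was a peak listed over them. A separate region, chr7:19405556-19405684 in its common stretch and the second of the sequences shown, ended 5341 bases before the main start, 690 to 780 bases past the start of the upstream Ckm transcript. It was listed in the first P1 library, both P3 and both P7 libraries, with fold enrichment from 4.26 to 7.34, and in neither E18.5 library. Its rank was 22803 in the first P1 list, 25814 and 27798 at P3, and 34213 and 20328 at P7. Each of these ranks lies beyond the length of either E18.5 list. A further region in the gene body, 10152 to 10291 bases past the start at 19411063, was outside the window. It was listed in the first E18.5, both P3 and the second P7 libraries, with fold enrichment from 4.34 to 6.12, and its sequence is not shown.

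**Figure D4:**
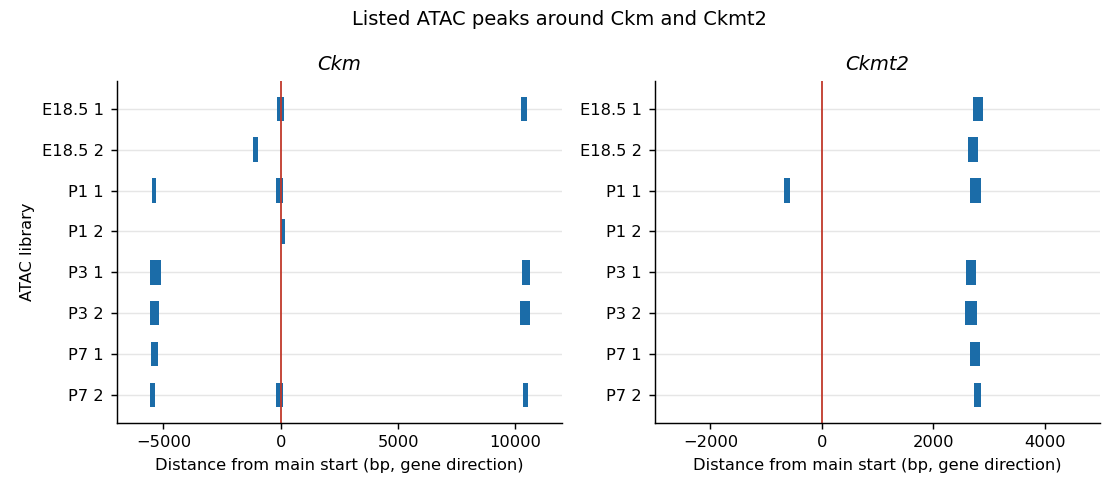
Listed ATAC-seq peaks (bars) in each library, by distance from the main start (red line, 0) in the direction of the gene, for Ckm and Ckmt2; narrow peaks are widened to be visible. The region 5341 bases before the Ckm start is listed at P3 and P7 and in 1 P1 library, and the Ckmt2 region inside the gene is listed in 7 of 8 libraries. A further region in the body of Ckm is listed in the first E18.5, both P3 and the second P7 libraries.

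The Ckmt2 promoter was listed with a peak in 1 library only, the first at P1, with its edge at −578 bases from the start. A region in the body of the gene, outside its annotated exons, was listed in 7 of 8 libraries, all but the second at P1. Its edge lay 2569 to 2723 bases past the start, just beyond the window, and its fold enrichment ranged from 3.54 to 6.39. The stretch shown among the sequences is its extent in the second E18.5 library. It was listed at P7 as well as at E18.5, while the RNA of Ckmt2 stood at 10.4 and 143 FPKM.

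Gamt had the most regular promoter peak, over its start in all 8 libraries, with summits 43 to 324 bases upstream and a rank in the upper 2.42 to 26.0% of each list. Dazap1 starts on the other strand beside it, at 71.4 ± 1.94 FPKM at E18.5 (SD, n = 2) and 87.6 ± 3.63 at P7, so the peak cannot be assigned to Gamt alone. Ckb held a peak over its start in the first P1, both P3 and both P7 libraries and none in the E18.5 libraries, where its RNA was highest. Gatm held one over its start in the first P1, both P3 and the first P7 libraries. In the second E18.5 library the edge of its peak lay 68 bases past the start. Slc6a8 held a peak over an annotated start in the first P3 and both P7 libraries. In the first P3 and first P7 libraries that start was of ENSMUST00000171398, which took at most 3.43% of Slc6a8 FPKM. In the second P7 library it was of ENSMUST00000114467, listed at 0 FPKM throughout. The P3 and P7 lists were also the longer ones, and the part of list length in these listings was not tested.

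In the rat cultures the question was whether TSA moved these genes. None of the 6 passed the test, where 1.81% of all 13625 tested genes were called higher with TSA and 0.316% lower. The sum of 14 cardiomyocyte markers was 13713 to 18062 FPKM with DMSO and 12759 to 25199 with TSA, and that of 11 fibroblast markers 7314 to 7935 and 4166 to 6860, with none of these called. In 3 other cell type lists 1 marker each was called higher with TSA: Cldn5 of 10 endothelial markers (1.05, adjusted p = 0.0224), Rgs5 of 10 smooth muscle and pericyte markers (1.80, adjusted p = 0.00694) and C1qc of 8 macrophage markers (1.61, adjusted p = 0.0224). Their summed levels were 70.7 to 89.1, 910 to 2411 and 486 to 1027 FPKM with DMSO and 81.3 to 93.3, 678 to 1643 and 421 to 552 with TSA, and their part in the values of the 6 genes was not tested. Both libraries numbered 3 stood apart from the others of their group, with correlations of log2 FPKM of 0.953 to 0.966 to them against 0.983 between numbers 1 and 2. Each gene is therefore given in library order.

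Ckm was listed at 335, 381 and 153 FPKM with DMSO and 305, 281 and 325 with TSA, with overlap. Its log2 difference was 0.17 (95% interval −0.61 to 0.95, adjusted p = 0.829) and −0.29 without both libraries numbered 3. Ckmt2 was barely present, at 1.10, 0.818 and 0.668 FPKM with DMSO and 1.14, 1.16 and 3.64 with TSA, which did not overlap, and its difference was 0.58 (adjusted p = 0.382). Ckb was listed at 117, 130 and 133 FPKM with DMSO and 147, 148 and 285 with TSA. These did not overlap either, its difference was 0.54 (95% interval −0.08 to 1.15, adjusted p = 0.316) and the exact permutation test, two-sided, gave p = 0.1 for both genes, the smallest that 3 against 3 libraries allow.

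Slc6a8 was listed at 42.0, 44.6 and 34.8 FPKM with DMSO and 36.5, 37.9 and 60.6 with TSA, a log2 difference of 0.12 (95% interval −0.38 to 0.61, adjusted p = 0.813) that became −0.21 without the libraries numbered 3. Gatm was listed at 10.6, 7.93 and 27.3 FPKM and then 15.9, 15.7 and 33.4, higher with TSA in 3 of 3 numbers (0.58, 95% interval −0.55 to 1.70, adjusted p = 0.563), though the groups overlapped. Gamt was listed at 32.6, 34.4 and 20.2 FPKM with DMSO and 29.4, 32.2 and 20.7 with TSA, a difference of −0.07 (95% interval −0.65 to 0.51, adjusted p = 0.91). Without both libraries numbered 3, the log2 differences were 0.14 for Ckmt2, 0.26 for Ckb, 0.73 for Gatm and −0.12 for Gamt, and that of Gatm had an adjusted p of 0.0211 while staying under the fold limit for a call. The exact permutation p was 1, 0.8, 0.4 and 0.7 for Ckm, Slc6a8, Gatm and Gamt, two-sided over 20 splits.

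**Figure D5:**
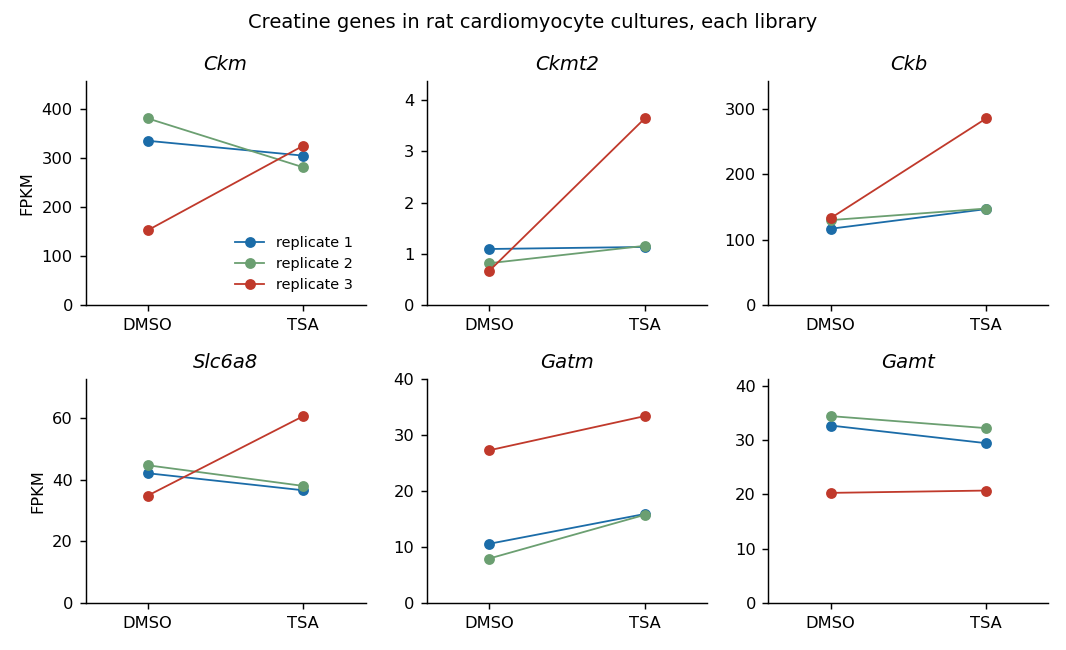
FPKM of each gene in the 3 DMSO and 3 TSA rat libraries (axes from 0); lines join libraries of the same number. The libraries numbered 3 part from the others, as for Ckm at 153 and 325 FPKM and Ckb at 133 and 285.

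In the cultures Ckm took 52.8 to 74.4% of the creatine kinase FPKM with DMSO and 52.7 to 67.1% with TSA, Ckb took 25.4 to 45.9% and 32.3 to 46.2%, and Ckmt2 no more than 0.590%. These shares were not tested. Among related genes, Slc16a12, a creatine transporter of other tissues, was called higher with TSA. It was listed at 7.16, 6.21 and 7.58 FPKM with DMSO and 13.6, 13.4 and 20.1 with TSA, which did not overlap, with a log2 rise of 1.05 (SE 0.18, adjusted p = 0.0299). The rise was below the fold limit without both libraries numbered 3 (0.92, adjusted p = 0.00499) and without TSA replicate 3 (0.87), and did not pass with median-of-ratios scaling (adjusted p = 0.0505) or without DMSO replicate 1 or 2 or TSA replicate 1 or 2 (adjusted p from 0.101 to 0.13). None of the 12 tested rat genes of arginine, glycine and methyl supply, 7 adenylate kinases and related enzymes, 6 exchange genes and 5 AMPK subunits was called.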

How the data were processed

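RNA-seq and ATAC-seq files of mouse and RNA-seq files of rat were used, and HiChIP data were not analysed here. The authors aligned RNA-seq reads with HISAT2 2.1.0 and quantified them with StringTie 1.3.5, on mm10 for mouse and rn6 for rat. The deposited files give FPKM, TPM and coverage per transcript, of which the authors scaled FPKM by length and aligned reads, TPM to a fixed total, and coverage not at all. ATAC-seq reads were aligned by the authors with Bowtie2 and peaks called per library with MACS2. In the deposited lists the score is a rounded multiple of the q value, the fold enrichment is the authors' ratio of signal to background, and −log10 values of p and q were also deposited.

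Gene FPKM was summed over transcripts. Genes with FPKM of at least 1 in 2 mouse or 3 rat libraries were tested on log2(FPKM + 1) with limma 3.58.1 in R 4.3.3 (eBayes with trend, two-sided, Benjamini-Hochberg), all 8 mouse libraries in 1 fit. A call is an adjusted p under 0.05 with a log2 fold change above 1 in size. An F test over ages came from the same fit. Depth was computed from coverage and FPKM, with reads of 150 bases. The library kit keeps no strand. Peaks counted at 2.5 kb or less from a GENCODE start. Sequences came from RefSeq GRCm38.p6. Genes named from lists are at most the 4 called with the largest change for P7 against E18.5 or TSA against DMSO. The result of the M-band list as a whole is not reported here. The members and lists were chosen with earlier results of these data known. In rat the deviations of DMSO and TSA libraries of the same number correlated at 0.224, 0.194 and 0.346. Between numbers 1 and 2 the correlations were 0.0904 and 0.167, and between number 3 and the others −0.270 to −0.200. Number 3 thus stood apart in both groups, and whether the numbers pair the libraries cannot be told from these values. With the number as a block in the rat fit, no member's call changed, and all-gene calls went from 290 to 339. Alternatives are given in the closing section.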

Additional observations from a re-analysis of the deposited data

How the results depend on the processing

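Against E18.5, each creatine gene called as measured was called in that direction under every alternative that tested it, except on the scale centred on the cardiomyocyte markers. There Ckb at P1 and P3 and Ckmt2 at P7 were not called and Ckb at P7 was called the other way, and with the spread of each gene alone Ckm and Gatm at P1 were not called either. Without the filter on low values, 1 of the 6 genes was called at P7 against P1 and 0 at P7 against P3. With the replicate block the count at P7 against P3 was 1, and with only the 2 time points compared it was also 1; the block changed no other call. In rat it changed none. No pairing of the mouse libraries by number was seen (correlations −0.0964 to 0.171). Leaving out single libraries gave 0 to 2 calls at P7 against P3 and 2 to 3 at P7 against P1. Centred on the cardiomyocyte markers, a scale chosen after seeing the data, the counts were 5, 5 and 4 at P7 against E18.5, P1 and P3, with moderated spread as with the spread of each gene alone, and 0 at P1 against E18.5 in the latter, also chosen after seeing the data. The moderated fit takes the centring error, which all genes share, as known, so its p values are too small. On that scale log2 changes turned sign for Ckmt2 (0.45 at P3, 0.31 at P7, 0.53 at P3 against P1 and 0.39 at P7 against P1), Ckb (0.30 and 2.83 at P3 and P7, 0.91 at P3 against P1), Slc6a8 (1.71 and 3.85 at P3 and P7, 0.74 at P3 against P1, 2.88 and 2.14 at P7 against P1 and P3), Gamt (0.42, 1.77 and 3.74 against E18.5, 3.32 and 1.97 at P7 against P1 and P3) and Gatm (0.51 at P3 against P1, 2.15 and 1.64 at P7 against P1 and P3).

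Small changes also turned. Slc6a8 at P1 became −0.049 with median-of-ratios factors and ranged from −0.046 to 0.34 over left-out libraries. At P3 it became 0.15 with TPM, 0.081 with voom and 0.066 with TPM without globin genes, and ranged from −0.23 to 0.046. Gamt at P3 became 0.20 with TPM and 0.12 without globin genes, and ranged from −0.24 to 0.17. Ckmt2 at P3 against P1 ranged from −0.94 to 0.022. In rat, the ranges were −0.24 to 0.42 for Ckm, −0.11 to 0.25 for Slc6a8 and −0.30 to 0.11 for Gamt, and without both libraries numbered 3 the values were −0.29 for Ckm and −0.21 for Slc6a8. The causes were not tested.

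With the upper 0.5 of each peak list, 1, 1, 3 and 2 creatine genes held a promoter peak at E18.5, P1, P3 and P7 (32.9, 28.2, 73.2 and 65.0% of tested genes), with equal numbers of peaks 1 at P3 and 1 at P7, and with single libraries 2 to 5 at P1. Calls over all genes at P7 against P3 went from 496 to 15 without the filter and to 24, 26 and 101 without the first or second P3 or the second P7 library, at P3 against P1 from 2 to between 0 and 42, at P1 against E18.5 from 2258 to 3547 with TPM, and in rat from 290 to 79 at a mean FPKM of at least 5 and 0 to 446 over left-out libraries, 0 without TSA replicate 1 or 2. On the centred scale they were 11737 at P3 and 13818 at P7 against E18.5, and 13782 and 13679 at P7 against P1 and P3 (9297, 13763, 13731 and 13316 with the spread of each gene alone). Against E18.5, Gatm at P7 passed with a pseudocount of 0.1 (1.25) and with TPM (1.18, and 1.12 without globin genes), and Ckmt2 at P3 passed with median-of-ratios factors (−1.58), with voom (−1.38), without either P7 library and with only the 2 time points (−1.36 each). Leaving out the second P7 library took calls at P7 against P1 from 1245 to 829. With 2 libraries an age and peak lists of unequal length, precision is limited.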
